A study of Neotoma lepida with 16 samples.

Results

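The cytochrome P450 genes Cyp1a2, Cyp1b1, Cyp2a1, Cyp2a2 and Cyp2a3a were followed in the livers of desert woodrats (Neotoma lepida) fed creosote bush or juniper. The set was taken as every array probe that carried 1 of these 5 gene symbols, out of 35561 gene and transcript names on the array, which gave 7 of the 41012 distinct probes. Cyp1a2 and Cyp1b1 had 2 probes each, and the other genes had 1 probe each. Of the 7 probes, 6 were bright enough to be tested.

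Wild-caught woodrats of 2 populations, Mojave and Great Basin, were held on rabbit chow for 3 months and then ate chow with rising amounts of plant for 5 days, either creosote bush or juniper. The 4 groups were Mojave woodrats on creosote, Mojave woodrats on juniper, Great Basin woodrats on creosote and Great Basin woodrats on juniper, with 4 animals in each. The Mojave creosote group held 0 females and 4 males, and in the other groups females and males were equal in number, at 2 each. No group ate chow alone, so "higher" and "lower" between diets describe creosote relative to juniper only. The animals' ages were not given in the sources used here. Each animal's liver RNA was labelled in red (Cy5) and put on its own rat array beside a green (Cy3) pool of equal parts of the RNA of all 16 animals. A value is therefore the log2 ratio of 1 animal over that pool, where 0 is the level of the pool.

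Cytochrome P450 enzymes of the CYP1 and CYP2A families oxidise foreign and endogenous small molecules in the endoplasmic reticulum. In rodents and people, Cyp1a2 is a liver enzyme of the hepatocytes near the central vein that oxidises caffeine and aromatic amines, and it is switched on through the aryl hydrocarbon receptor (Ahr) together with Cyp1a1 and Cyp1b1. Cyp1b1 is known mainly from tissues outside the liver and from mesenchymal cells. In the rat, Cyp2a1 and Cyp2a2 hydroxylate testosterone, Cyp2a1 is higher in the adult female liver and Cyp2a2 in the adult male liver. Cyp2a3, the gene the array design calls Cyp2a3a, is known in the rat from lung and nasal mucosa, and its mouse and human counterparts in liver hydroxylate coumarin and nicotine. Creosote bush resin is rich in phenolics such as nordihydroguaiaretic acid, and juniper foliage is rich in terpenes.

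The arrays were read as liver first. Of 18 hepatocyte markers on the array, 14 were well above background on all 16 arrays, while Tf and Apoa1 were well above background on 0 arrays. The share of probes well above background lay between 46.4% and 76.2% per array, and 1 slide of 4 arrays, slide 1, was dimmer, at 49.2% on average, against 66.0% to 71.7% on the other slides. Each slide held 1 animal of each group. Creosote animals always lay at positions 1 and 2 of a slide and juniper animals at positions 3 and 4, so diet and position cannot be told apart, nor can population and position within a diet. No pair of arrays had log ratios that correlated above 0.55, so no array looked like a copy of another. The labels name separate animals, but the probes are rat sequences, and how far each matched woodrat RNA was not examined. Probes of related P450s may share woodrat transcripts, and levels are not compared between probes.

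The tested probes spanned dim and very bright spots. Cyp1a2 probe 1 (A_44_P142025) gave a red signal over local background of 10100 to 49700, with a median of 31500, and Cyp2a3a (A_44_P111865) gave 23100 to 74000, with a median of 46800. These signals lay at the 98.7th and 99.1th percentiles of all probes. Cyp2a1 (A_42_P654578) gave 2770 to 9240. The remaining probes were dim: Cyp1a2 probe 2 (A_42_P711139) gave 28.0 to 251, Cyp1b1 probe 1 (A_44_P191778) gave 20.2 to 149 and Cyp2a2 (A_44_P356143) gave 15.9 to 56.4. Cyp1b1 probe 1 was well above background on 14 of 16 arrays, Cyp2a2 on 12, and the other tested probes on all 16. Cyp1b1 probe 2 (A_44_P251228) gave −6.72 to 8.86 and was well above background on 0 of 16 arrays, so it was not tested. No member spot was saturated.

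Cyp1a2, the liver member of the CYP1 family, showed no diet or population call at its bright probe. Probe 1 had log2 ratios of −0.76, −0.26, 0.70 and 0.38 in the 4 Mojave animals on creosote, against −0.02, 0.28 and 0.04 in 3 Mojave animals on juniper. It had 0.92, 0.47 and −0.49 in 3 Great Basin animals on creosote, against 0.12, 0.13, 0.10 and −0.04 in the 4 Great Basin animals on juniper. The 2 missing animals are Mojave juniper 2 and Great Basin creosote 2, whose red spots the scanner software marked as non-uniform. In log ratio, creosote animals lay both above and below the juniper animals in each population, and the groups overlapped.

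The group means of Cyp1a2 probe 1 were 0.01 ± 0.654 (SD, n = 4) in Mojave creosote, 0.10 ± 0.161 (SD, n = 3) in Mojave juniper, 0.30 ± 0.718 (SD, n = 3) in Great Basin creosote and 0.08 ± 0.0805 (SD, n = 4) in Great Basin juniper. Creosote minus juniper was −0.20 ± 0.38 (log2, SE) in Mojave, with a 95% interval of −1.01 to 0.61 and an adjusted p of 0.833 by limma. In Great Basin it was 0.25 ± 0.35, with an interval of −0.50 to 1.01 and an adjusted p of 0.781. The intervals reach a fall of 1 log2 unit in Mojave and a rise of 1 unit in Great Basin. Diet changes of that size and direction were therefore not excluded at this spread. The SD within groups was 0.681 on creosote and 0.119 on juniper.

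On creosote, the values of Cyp1a2 probe 1 ran with the slide in both populations. They were 0.70 in Mojave and 0.92 in Great Basin on slide 1, 0.38 and 0.47 on slide 2, and −0.76 and −0.49 on slide 3, so on these slides the Mojave and Great Basin creosote animals lay within 0.28 of each other. Creosote minus juniper within slides was 0.42 in Mojave and 0.82 in Great Basin on slide 1, 0.35 and 0.51 on slide 2, and −0.74 and −0.60 on slide 3. Slide 4 held both spots marked as non-uniform and gave no such difference, and its raw red signals on creosote were 15200 in Mojave and 37700 at the marked Great Basin spot. The part of the slide in the spread on creosote was not tested.

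The ratio of the SDs on creosote and on juniper, 5.70, was matched or exceeded by 0.295% of the 30172 probes for which it could be computed and by 1.16% of the brightest decile of them. It is given as a description, since the probe was looked at for its spread after its values were seen. The pool's green signal at this spot stayed between 10000 and 13700 on all 16 arrays. The low ratios on creosote came with low red signals. The red signals were 10100, 15200, 34300 and 32600 in the Mojave creosote animals, against 29100 to 38800 in the Mojave juniper animals. The Mojave creosote animals with ratios of 0.70 and 0.38 had red signals of 34300 and 32600, within the juniper range. Their higher ratios were therefore not seen in raw red signal. In Great Basin they were 15400 to 49700 on creosote, against 27100 to 34400 on juniper. The plot of signals by animal and pool shows 3 creosote animals, 2 from Mojave and 1 from Great Basin, well under every juniper animal.

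**Figure D1:**
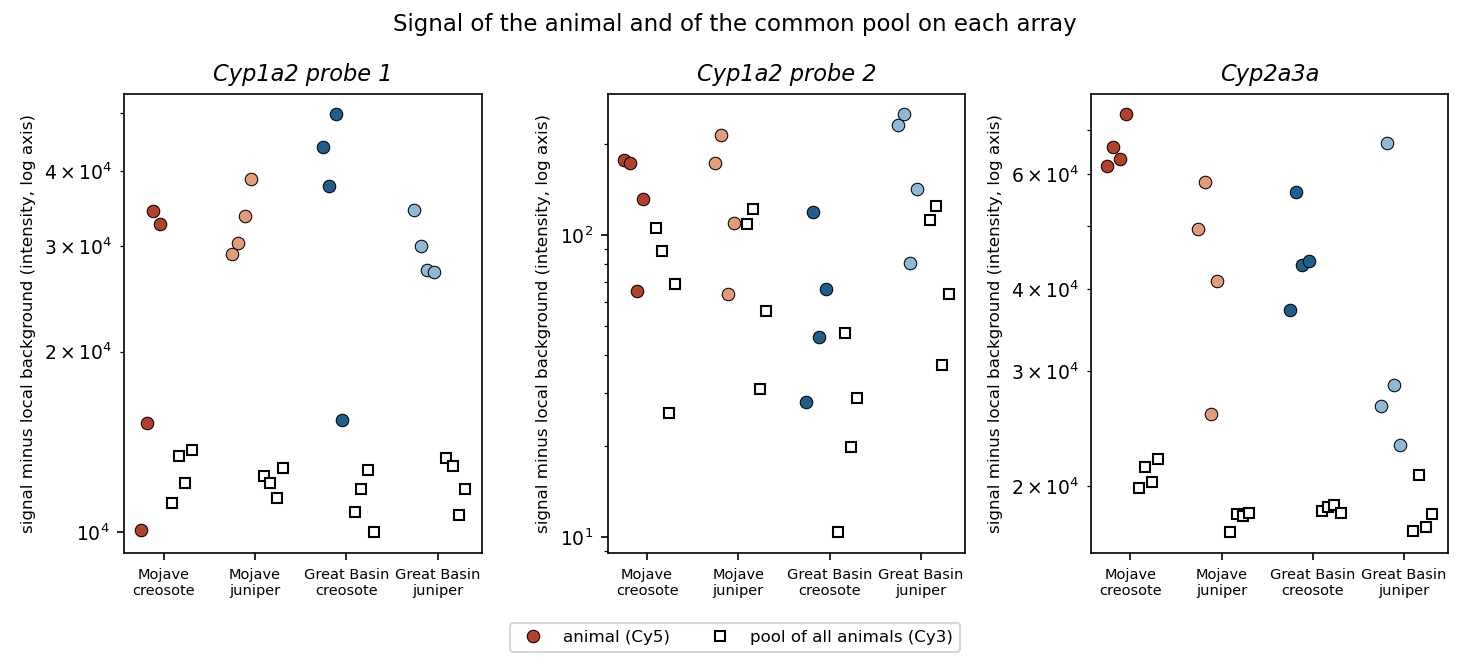
Red signal of each animal (filled circles) and green signal of the common pool on the same array (open squares), over local background and on a log axis, for both Cyp1a2 probes and Cyp2a3a in the 4 groups. The pool is level at Cyp1a2 probe 1 (10000 to 13700) while creosote animals run from 10100 to 49700. At Cyp1a2 probe 2 the pool itself runs from 10.4 to 125. At Cyp2a3a the 4 Mojave creosote animals lie at 61700 or above, as does 1 Great Basin juniper animal at 66900.

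The dim Cyp1a2 probe 2 passed for diet in Mojave, where probe 1 did not. Its log2 ratios were 0.12, 0.41, 0.30 and 0.09 in Mojave creosote animals, against −0.24, −0.21, 0.06 and −0.09 in Mojave juniper animals. Every Mojave creosote animal lay above every Mojave juniper animal, a separation in this direction that 7.11% of all probes showed. Probe 2 rose on creosote in Mojave by 0.39 ± 0.082 (log2, SE), or 1.31-fold, with an adjusted p of 0.00685 by limma.

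In Great Basin, probe 2 had 0.10, 0.13, 0.13 and 0.11 on creosote, against 0.09, 0.08, 0.09 and 0.02 on juniper. The groups did not overlap here either, as for 5.10% of all probes in this direction, but the difference was only 0.04 ± 0.075, with an adjusted p of 0.828. The Mojave diet effect exceeded the Great Basin one by 0.35 ± 0.11, with an unadjusted p of 0.00717 and an adjusted p of 0.182 by limma. Probe 2 sits close to background in the pool: its green signal was 10.4 to 47.4 on the Great Basin creosote arrays, against 37.2 to 125 on the Great Basin juniper arrays. In the red channel alone, without the pool, its Great Basin diet difference turned to −0.68 with an adjusted p of 0.0259, and its Mojave difference was 0.41 with an adjusted p of 0.231. Across 14 arrays the log ratios of both Cyp1a2 probes correlated with r = 0.06, so the Mojave call of probe 2 was not shared by the bright probe of the same gene.

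**Figure D2:**
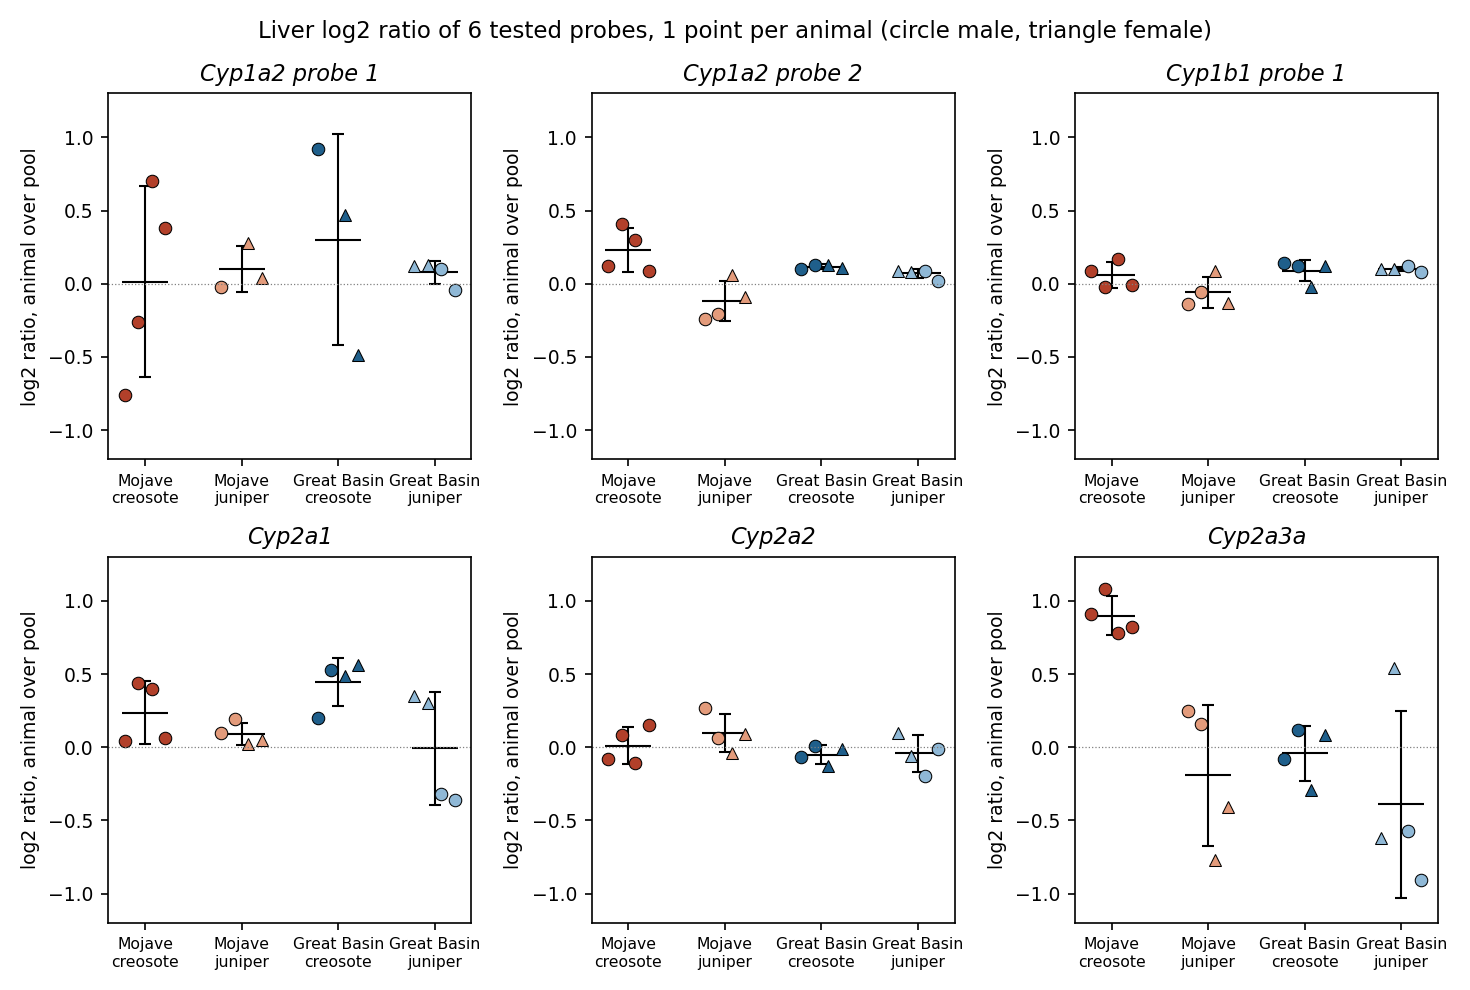
Log2 ratio of each animal over the pool for the 6 tested probes, by group (circles males, triangles females; bar and whiskers, mean ± SD). Cyp2a3a stands at 0.78 to 1.08 in the 4 Mojave creosote animals and at or below 0.54 in every other animal, and Cyp1a2 probe 1 is widely spread on creosote and tight on juniper.

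Cyp1b1, the CYP1 enzyme of mesenchymal tissues, varied little. Probe 1 had log2 ratios of 0.09, −0.02, 0.17 and −0.01 in Mojave creosote animals, against −0.14, −0.06, 0.09 and −0.13 in Mojave juniper animals. In Great Basin it had 0.14, 0.12, −0.02 and 0.12 on creosote, against 0.10, 0.10, 0.12 and 0.08 on juniper. The diets overlapped in both populations. Creosote minus juniper was 0.12 ± 0.073 in Mojave (adjusted p = 0.392 by limma) and −0.01 ± 0.067 in Great Basin (adjusted p = 0.960), with 95% intervals of −0.04 to 0.27 and −0.15 to 0.13. On juniper, Mojave animals lay 0.16 lower than Great Basin animals (−0.16 ± 0.067), with an unadjusted p of 0.0316 and an adjusted p of 0.546. With a signal this near background, an offset added to both channels also draws its ratios toward 0.

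Cyp1a1, the third member of the CYP1 family, is the enzyme whose transcript typically rises most when Ahr is activated. Its probe was spotted 10 times per array, and 0 of 160 spots were well above background in the animals. The array means of its net red signal were 1.29 to 5.73, and 0 of its 160 spots were well above background in the pool. A rat probe at background does not show that the woodrat transcript was absent.

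Cyp2a3a was the member with the clearest group pattern, and it was highest in Mojave woodrats on creosote. Its log2 ratios were 0.91, 1.08, 0.78 and 0.82 in those 4 males, against 0.25, 0.16, −0.77 and −0.41 in Mojave animals on juniper. In Great Basin they were −0.08, 0.12, −0.29 and 0.08 on creosote, against −0.62, 0.54, −0.57 and −0.91 on juniper. The Mojave creosote animals, all male, overlapped with no other group. Mojave creosote lay above Mojave juniper without overlap at 7.11% of all probes. The share of probes separated from Great Basin juniper was not computed. The other 3 groups overlapped with one another.

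In raw red signal, the Mojave creosote animals gave 61700, 66000, 63300 and 74000 for Cyp2a3a, against 49500, 58300, 25800 and 41200 in Mojave juniper animals. Great Basin creosote animals gave 37200, 56300, 43500 and 44200, against 26500, 66900, 28500 and 23100 on juniper. The Great Basin juniper animal at 66900, a female, stood far above the other 3 of its group. The pool's green signal at this spot was 17000 to 22000.

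The group means of Cyp2a3a were 0.90 ± 0.135 in Mojave creosote, −0.19 ± 0.483 in Mojave juniper, −0.04 ± 0.185 in Great Basin creosote and −0.39 ± 0.636 in Great Basin juniper (SD, n = 4 each). Ordered from high to low, Mojave creosote came first, followed by Great Basin creosote, Mojave juniper and Great Basin juniper, and the last 3 lay within each other's spread. The spread ran opposite to that of Cyp1a2 probe 1: the SD within groups was 0.162 on creosote and 0.565 on juniper, a ratio of 0.288.

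In Mojave, Cyp2a3a was 2.08-fold higher on creosote than on juniper, at 1.05 ± 0.29 (log2, SE), with an adjusted p of 0.0291 by limma over all kept probes. Within slides, which pair 1 animal of each diet, the Mojave difference was 0.67, 0.92, 1.22 and 1.55, so it was positive on 4 of 4. The call was lost without slide 1, at 0.94 with an adjusted p of 0.123, and in 4 of the 16 fits that left out 1 animal, namely Mojave creosote 1 or 2 or Mojave juniper 3 or 4, where the adjusted p was 0.0541 to 0.0715. The Mojave creosote animals were all male. Both low Mojave juniper animals were female and on slides 1 and 2, while the males of that group were on slides 3 and 4. The fit over the 10 males alone, with 2 animals in each group but Mojave creosote, gave a smaller Mojave difference for Cyp2a3a, 0.69, with an adjusted p of 0.0176.

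In Great Basin, Cyp2a3a was 0.34 ± 0.27 higher on creosote, with a 95% interval of −0.22 to 0.91 and an adjusted p of 0.571. Without the high female of the juniper group, Great Basin juniper 2, the difference was 0.70 with an adjusted p of 0.0489. The within-slide differences were 0.48, 0.62, 0.70 and −0.42, and the negative one is the slide that held that animal. The interaction (Mojave's diet difference less that of Great Basin) was 0.71 ± 0.39, with an interval of −0.12 to 1.54 and an adjusted p of 0.458, so the diet effects were not shown to differ between populations. In males alone the Great Basin diet difference was 0.75 (adjusted p = 0.0554 by limma), beside 0.69 in Mojave. The interaction was then −0.06 (adjusted p = 0.948 by limma), so the larger diet difference of Mojave was not seen among males. That fit also left out Great Basin juniper 2, the high female, so for the Great Basin difference sex and that animal cannot be told apart. With any 1 animal left out, the Mojave difference was 0.92 to 1.25 and the interaction 0.23 to 0.91. The part of sex in these differences was not tested.

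Between populations, Cyp2a3a was 1.87-fold higher in Mojave than in Great Basin animals on creosote, at 0.90 ± 0.29, without overlap of the groups. That separation was shared in this direction by 2.71% of all probes. Its unadjusted p was 0.0065 and its adjusted p was 0.170 by limma, so it did not pass. Within slides it was 0.83, 0.86, 0.96 and 1.11. On juniper the population difference was 0.19 ± 0.27, with an interval of −0.37 to 0.76, and it ran from −0.01 to 0.56 when 1 animal was left out. Within slides the juniper difference was −0.20, 0.50, 0.86 and −0.38. In males alone it was 0.94 on juniper (adjusted p = 0.484 by limma), beside 0.88 on creosote (adjusted p = 0.0712). The Mojave juniper males were on slides 3 and 4 and the Great Basin ones on slides 1 and 2. Population and slide therefore cannot be told apart among the juniper males. As the interaction did not pass, a population difference of Cyp2a3a limited to creosote was not shown.

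The log ratios of Cyp2a1, a steroid hydroxylase in the rat, moved with diet at a smaller scale. Its log2 ratios were 0.04, 0.44, 0.40 and 0.06 in Mojave creosote animals, against 0.10, 0.19, 0.02 and 0.05 in Mojave juniper animals. In Great Basin it had 0.20, 0.53, 0.49 and 0.56 on creosote, against 0.35, 0.30, −0.32 and −0.36 on juniper. In the Great Basin juniper group the 2 females were at 0.35 and 0.30 and the 2 males at −0.32 and −0.36. Those females were on slides 3 and 4 and the males on slides 1 and 2, so sex and slide cannot be told apart there. In the Great Basin creosote and Mojave juniper groups the sexes lay close together or overlapped. Group means were 0.23 ± 0.216 in Mojave creosote, 0.09 ± 0.0776 in Mojave juniper, 0.44 ± 0.167 in Great Basin creosote and −0.01 ± 0.384 in Great Basin juniper (SD, n = 4 each).

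Creosote minus juniper for Cyp2a1 was 0.45 ± 0.14 in Great Basin, with an unadjusted p of 0.00557 and an adjusted p of 0.0881, and 0.26 ± 0.15 in Mojave, with an adjusted p of 0.338 by limma. Within slides the Great Basin difference was 0.21, 0.23, 0.51 and 0.84, and the Mojave difference was −0.06, 0.01, 0.25 and 0.38. The red signal of Cyp2a1 was 3360 to 4540 in Mojave creosote animals, below the 4870 to 7310 of Mojave juniper animals. The pool's green signal on those arrays was 2050 to 2610. In Great Basin the red signal was 4530 to 9240 on creosote, against 2770 to 6050 on juniper. Across the other settings the Mojave difference in log ratio ran from −0.19 to 0.37. With slide as a block the Great Basin difference passed, at 0.45 with an adjusted p of 0.0351. Its sex difference, female minus male over all groups, was 0.24 ± 0.11 with an unadjusted p of 0.0552 and an adjusted p of 0.994.

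Cyp2a2, the male-typical hydroxylase of rat liver, stayed near the pool in all groups. Its log2 ratios were −0.08, 0.08, −0.11 and 0.15 in Mojave creosote animals, against 0.27, 0.06, −0.04 and 0.09 in Mojave juniper animals. In Great Basin it had −0.07, 0.01, −0.13 and −0.01 on creosote, against 0.10, −0.06, −0.20 and −0.01 on juniper. The groups overlapped. Creosote minus juniper was −0.10 ± 0.091 in Mojave (95% interval −0.29 to 0.10) and −0.01 ± 0.084 in Great Basin (interval −0.19 to 0.17). Female minus male was −0.02 ± 0.069, with an interval of −0.17 to 0.13, at a probe well above background on 12 of 16 arrays.

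**Figure D3:**
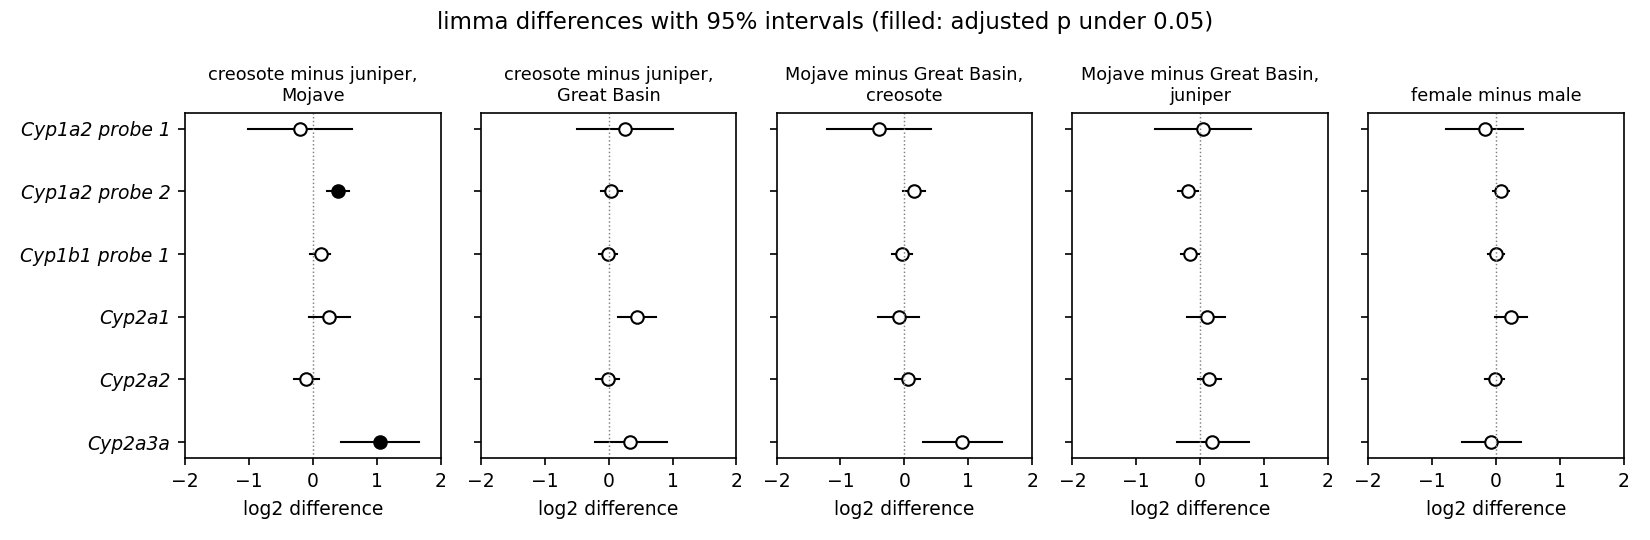
Log2 differences of the 6 tested probes with 95% intervals for both diet effects, both population effects and the sex difference (filled circles, adjusted p under 0.05). The filled points are Cyp1a2 probe 2 (0.39) and Cyp2a3a (1.05) for diet in Mojave, and the interval of Cyp1a2 probe 1 is the widest in the Mojave diet panel.

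Counted over the set, 2 of the 6 tested probes passed in the Mojave diet comparison, both higher on creosote, against a background of 10.0% of all probes in either direction and 3.81% higher. In the Great Basin diet comparison 0 of 6 passed by limma, against 3.91% of all probes, and 1 of 6 had an unadjusted p under 0.05. Averaged over populations, 3 of 6 were higher on creosote, against 12.2% of all probes in either direction and 5.63% higher. These were Cyp2a3a at 0.70 ± 0.20 (1.62-fold, adjusted p = 0.0286 by limma) and Cyp2a1 at 0.36 ± 0.10 (1.28-fold, adjusted p = 0.0331). Cyp1a2 probe 2 was the other, at 0.22 ± 0.056 (1.16-fold, adjusted p = 0.0176). For Cyp2a1 the raw red signal did not show this rise in Mojave, where it was lower on creosote. In Great Basin the raw red signal reached higher on creosote, with overlap. In the red channel alone, normalised between arrays, the averaged call of Cyp2a1 was kept. Its Great Basin difference there was 0.77, with an adjusted p of 0.0351 by limma. Without the dim slide 1, 1 of 6 passed in Mojave and 0 of 6 passed in the averaged comparison, where Cyp2a3a was 0.62 with an adjusted p of 0.139. The fits that left out 1 animal gave 1 to 2 calls in Mojave and 1 to 3 in the averaged comparison. The averaged count was 1 without Great Basin creosote 4, Great Basin juniper 3, Great Basin juniper 4 or Mojave creosote 2.

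Populations and sexes gave no call in the set. On creosote 0 of 6 probes passed between populations by limma, against 0.0895% of all probes, and 1 had an unadjusted p under 0.05. On juniper 0 of 6 passed, against 0% of all probes, and 2 had an unadjusted p under 0.05. In the interaction 0 of 6 passed, against 0% of all probes, with 1 at an unadjusted p under 0.05. Averaged over diets 0 of 6 passed, against 0.0398% of all probes, and the 1 probe with an unadjusted p under 0.05 was Cyp2a3a, at 0.55 ± 0.20 with an adjusted p of 0.386. For sex 0 of 6 passed, against 0.00663% of all probes, and 0 had an unadjusted p under 0.05.

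**Figure D4:**
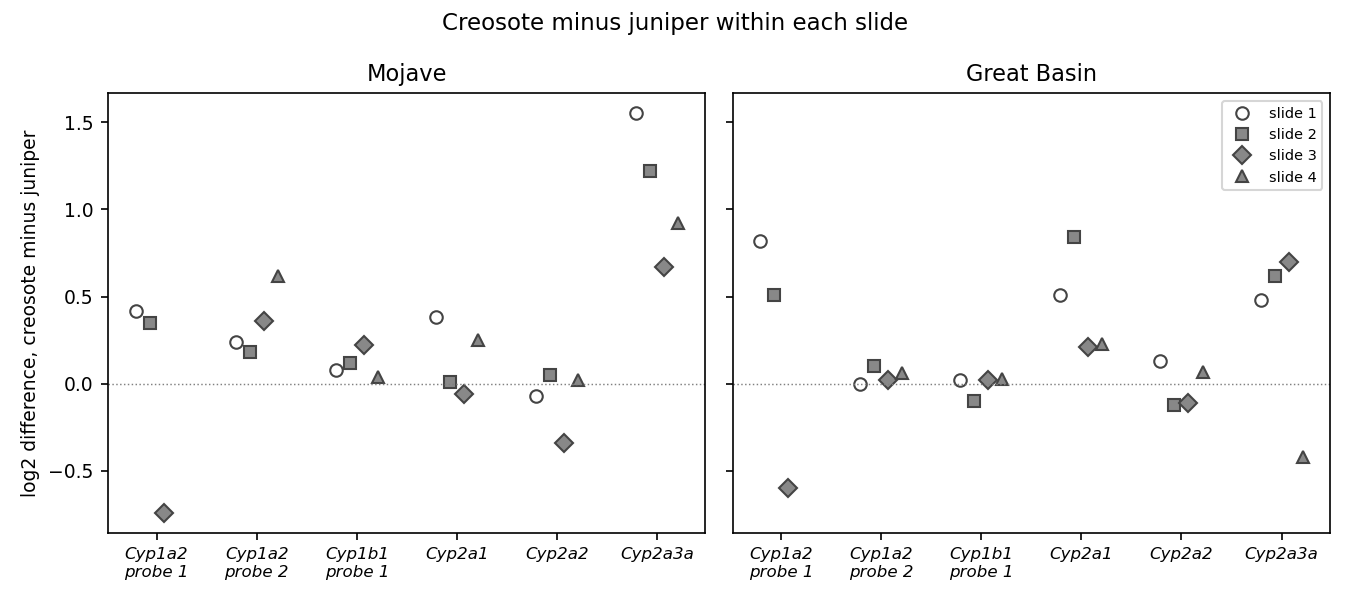
Creosote minus juniper within each of the 4 slides, for the 6 tested probes in Mojave (left) and Great Basin (right), as log2 differences; slide 1, drawn open, is the dim one. Cyp2a3a is above 0 on all 4 slides in Mojave (0.67 to 1.55) and on 3 of 4 in Great Basin, and Cyp2a1 is above 0 on all 4 in Great Basin (0.21 to 0.84).

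The members did not move as 1 block across animals. Cyp2a1 and Cyp2a3a, neighbours in the CYP2A family, correlated with r = 0.41 over 16 arrays and with r = 0.62 once group and sex means were removed. Cyp1b1 probe 1 and Cyp2a2, both dim, correlated with r = −0.67. Cyp1a2 probe 1 correlated with the other tested members at r between −0.19 and 0.17 over 14 arrays. All such values come from ratios to 1 shared pool, and they are descriptions.

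Among roughly 10000 other named genes, those whose log ratios ran most like the brightest probe of each member were as follows. For Cyp1a2 they were Olfml3 (r = 0.92), Slc25a1, the mitochondrial citrate carrier (r = 0.92), and Oplah, an enzyme of glutathione turnover (r = 0.90), over 14 arrays. With group and sex means removed, these were 0.95, 0.94 and 0.92. Slide was not removed, and the creosote values of Cyp1a2 ran with it. For Cyp2a3a they were Znrf4 (r = 0.86), Dpysl2 (r = 0.83) and Proz, a plasma protein of coagulation (r = 0.83), over 16 arrays. With group and sex means removed these fell to 0.59, 0.67 and 0.69.

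Of the genes most like Cyp2a3a, Dpysl2 gave a creosote minus juniper difference of 0.86 ± 0.21 in Mojave, Proz gave 0.73 ± 0.20 and Znrf4 gave 0.27 ± 0.085 (log2, SE). For Cyp2a1 the most alike were Nfs1 (r = 0.82), Igf2 (r = 0.80) and Eif1b (r = 0.78). For Cyp1b1 they were Osgep (r = 0.95), Olr1218 (r = 0.78) and Olr164 (r = 0.78), and for Cyp2a2 they were Chrna1 (r = 0.79), Pgm1 (r = 0.74) and Rgma (r = 0.74). The genes were picked for their r on these arrays, so neither the r values nor the diet differences of these genes carry a test.

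The pathway that controls the CYP1 genes gave a mixed picture. Of 20 genes listed for Ahr signalling, its partners, chaperones and targets, 17 were tested, each by its brightest probe. On creosote in Mojave 2 rose and 4 fell, with a median log2 difference of 0.00 beside 0.00 over all 26545 genes, of which 3.90% rose and 5.83% fell. In Great Basin 0 rose and 3 fell, with a median of −0.04 beside −0.01, while 2.04% of all genes rose and 1.91% fell. Those counts include Cyp1a2 and Cyp1b1, neither of which passed by its brightest probe.

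The receptor Ahr itself was 0.20 ± 0.19 in Mojave and −0.11 ± 0.18 in Great Basin, and its dimer partner Arnt was −0.23 ± 0.094 and −0.09 ± 0.087, with adjusted p-values between 0.159 and 0.812 by limma. Tiparp, a close target and feedback inhibitor of Ahr, was 0.00 ± 0.094 in Mojave and 0.17 ± 0.087 in Great Basin, also without a call. The targets that fell on creosote were Nqo1, a quinone reductase, by 0.76 in Mojave (−0.76 ± 0.22, adjusted p = 0.0388), and Ugdh, which makes UDP-glucuronic acid, by 1.05 in Mojave and 1.11 in Great Basin (−1.05 ± 0.17 and −1.11 ± 0.17). Both are also known as targets of the oxidant sensor Nrf2. The Hsp90 chaperone genes Hspca (−1.10 ± 0.26 and −1.08 ± 0.24) and Hspcb (−0.60 ± 0.11 and −0.77 ± 0.10), which hold Ahr in the cytosol among many other clients, fell in Mojave and in Great Basin. The 2 that rose in Mojave were Scd1, a fatty acid desaturase (0.52 ± 0.11, adjusted p = 0.00814), and Cdkn1b, a cell cycle inhibitor (1.31 ± 0.18, adjusted p = 5e-04).

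**Figure D5:**
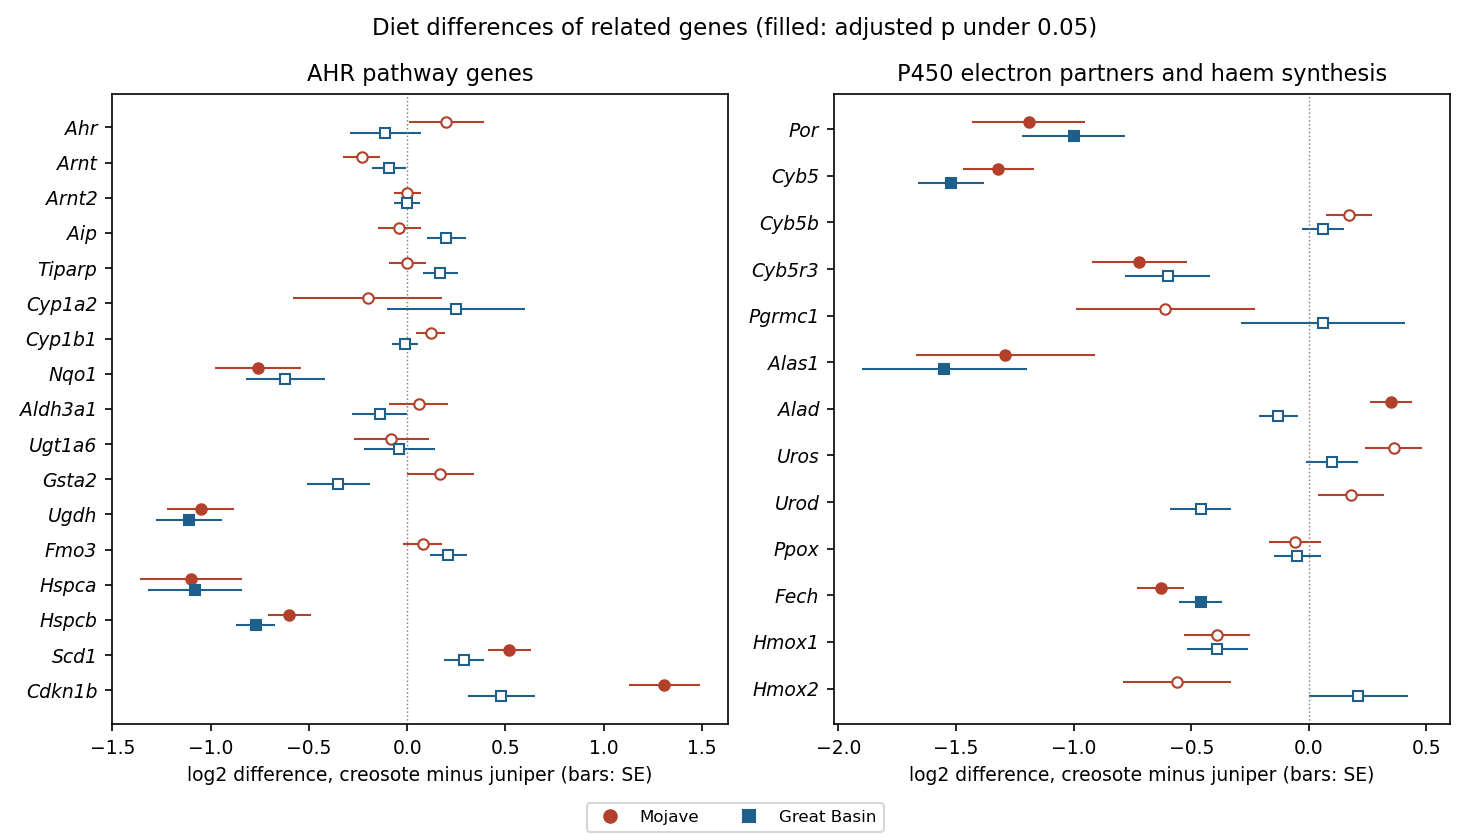
Creosote minus juniper log2 differences (points, with SE bars) of the Ahr pathway genes (left) and of the P450 partner list (right). That list holds electron partners and haem synthesis genes with Pgrmc1, Hmox1 and Hmox2. Mojave is drawn as circles and Great Basin as squares, filled where the adjusted p was under 0.05. In the left panel Cyp1a2 is drawn by its bright probe 1, at −0.20 ± 0.38 in Mojave and 0.25 ± 0.35 in Great Basin. Cyp1a2 probe 2, which passed in Mojave, is not drawn. Cyp1b1 lies at 0.12 in Mojave and −0.01 in Great Basin. In the right panel Por, Cyb5, Alas1 and Fech are filled and below 0 in both populations.

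Transcripts of the proteins that P450s need were lower on creosote where they passed, with 1 exception. The list held 13 tested genes, for electron donors and haem synthesis together with Pgrmc1 and the haem oxygenases Hmox1 and Hmox2. Of these 13, 5 fell and 1 rose in Mojave, with a median log2 difference of −0.56 beside 0.00 over all genes. Among all genes 5.83% fell and 3.90% rose. In Great Basin 4 fell and 0 rose, with a median of −0.39 beside −0.01, while 1.91% of all genes fell and 2.04% rose. Por, the reductase that passes electrons to every microsomal P450, fell by 1.19 in Mojave (−1.19 ± 0.24, adjusted p = 0.00502 by limma) and by 1.0 in Great Basin (−1.0 ± 0.22, adjusted p = 0.0175). Cyb5, a second electron donor, gave −1.32 ± 0.15 and −1.52 ± 0.14, and Alas1, the first enzyme of haem synthesis, gave −1.29 ± 0.38 and −1.55 ± 0.35. Alad, a later enzyme of that pathway, was the exception, at 0.35 ± 0.088 in Mojave (adjusted p = 0.0208). In the same comparisons, Cyp2a3a was 1.05 and 0.34 and Cyp2a1 was 0.26 and 0.45 in Mojave and Great Basin.

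Of 29 other tested P450 genes of families 2 and 3, 1 rose and 9 fell on creosote in Mojave, with a median of −0.21, and 1 rose and 11 fell in Great Basin, with a median of −0.13. Over all genes 3.90% rose and 5.83% fell in Mojave, and 2.04% rose and 1.91% fell in Great Basin. The gene that rose in both was Cyp2e1, an ethanol-oxidising enzyme of central-vein hepatocytes, at 0.65 in Mojave (adjusted p = 0.00389 by limma) and 0.51 in Great Basin (adjusted p = 0.0211). Among those that fell, Cyp2b15 gave −1.57 and −1.86, and Cyp3a3 gave −1.49 and −1.18. Whether the members differed from these genes as a set was not tested.

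Of 20 tested regulators that have been tied to CYP2A genes or to sex-biased liver expression, 2 rose and 1 fell on creosote in Mojave, where 3.90% of all genes rose and 5.83% fell. In Great Basin 1 rose and 1 fell, where 2.04% of all genes rose and 1.91% fell. Nr1i3, the CAR receptor that controls Cyp2a5 in mice, rose in both (0.82 ± 0.11 and 0.67 ± 0.11, adjusted p = 0.000592 and 0.0019 by limma). Nr3c1, the glucocorticoid receptor, rose in Mojave (0.49 ± 0.13). The clock output factor Tef fell in Mojave (−0.60 ± 0.17, adjusted p = 0.0397), and its relative Hlf fell in Great Basin (−0.82 ± 0.20, adjusted p = 0.0299). Cutl2, which is female-typical in rodent liver, was 1.80 ± 0.37 higher in females, with an adjusted p of 0.479, and 0 of 16 tested genes of a rat sex-bias list passed for sex.

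Cell markers moved with diet beside these results, and their part in them was not tested. Of 16 tested hepatocyte markers, 7 rose and 0 fell on creosote in Mojave (median 0.49), and 5 rose and 0 fell in Great Basin (median 0.61), Alb by 1.62 in Mojave and Tat by 1.41 in Great Basin among them. The shares over all genes were 3.90% higher and 5.83% lower in Mojave, and 2.04% higher and 1.91% lower in Great Basin, for this and the other marker lists. Of 15 tested periportal markers, 6 rose and 1 fell in each population, with medians of 0.37 in Mojave and 0.61 in Great Basin. Of 14 tested central-vein markers, 2 rose and 2 fell in Mojave and 3 rose and 1 fell in Great Basin. In bulk liver, fewer cells of a type and less RNA per cell cannot be told apart. The summed red signal of hepatocyte markers was 1530000 to 2030000 in Mojave creosote, 1550000 to 1790000 in Mojave juniper, 1790000 to 2180000 in Great Basin creosote and 1580000 to 1700000 in Great Basin juniper.

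Markers of other cell types gave few calls. For stellate cells, which could carry Cyp1b1, 1 of 13 tested markers rose in Mojave and 2 rose in Great Basin, 0 fell, Gfap was well above background on 0 arrays, and the summed signals overlapped, at 7100 to 11400 in Mojave creosote, 9410 to 14400 in Mojave juniper, 9940 to 16500 in Great Basin creosote and 7680 to 10600 in Great Basin juniper. Of 10 Kupffer cell markers, 0 passed in Mojave and 1 fell in Great Basin. The lists for endothelium, bile duct cells, lymphocytes, erythroid cells and neutrophils each had 0 or 1 gene past the threshold in each direction for diet within a population. Of 15 tested markers of pancreas, intestine and other organs, 3 rose in Mojave and 2 in Great Basin. Their summed signal was 78900 to 115000 in Mojave creosote, 20500 to 47100 in Mojave juniper, 85600 to 190000 in Great Basin creosote and 33800 to 49800 in Great Basin juniper, without overlap between diets. Amy2, an amylase gene, rose by 2.23 in Mojave and 1.89 in Great Basin, and Umod, a kidney gene, by 0.46 and 0.40. The elastase gene Ela1 rose in Mojave by 0.59 (adjusted p = 0.0288 by limma) and gave 0.22 in Great Basin without a call. Of the other pancreatic enzyme genes tested, none passed in either population by limma: Cpb1 gave 0.57 and 0.15, Ctrb 0.54 and −0.20, Prss1 0.16 and −0.02, Pnlip 0.04 and −0.03, Cel 0.02 and −0.19, and Cpa1 0.00 and −0.05 in Mojave and Great Basin.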

How the data were processed

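The 16 arrays, Agilent rat designs read in 2 colours, held the liver RNA of 16 animals in 1 dye orientation, the animal in Cy5 and the pool in Cy3. The deposited scanner files hold mean signals and local backgrounds as linear intensity, written by Agilent Feature Extraction 9.1.3.1 per the submitters' processing notes. They also hold the software's processed signals and, per the file headers, a log10 ratio of red over green. The values deposited for the whole series are on the log2 scale, processed red over processed green, uncentred, with column medians of −0.179 to −0.008, and differ from that ratio by at most 5e-10.

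In R 4.3.3 with limma 3.58.1, signals were corrected by normexp (offset 50) and loess-normalised within arrays. The offset draws dim ratios toward 0. Spots marked as outliers were left out and repeated spots averaged. Probes with red well above background on at least 4 arrays (30186) entered 1 fit of 4 group means and sex over all 16 arrays, with 11 residual degrees of freedom and two-sided moderated tests. Adjusted p-values are Benjamini-Hochberg over all kept probes, with a threshold of 0.05, for 8 comparisons. A few probes without a value in some group or sex are missing from single comparisons. The number of arrays limits precision.

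Members and gene lists were chosen with earlier results of these data known. Named beside members were the 3 genes most like each, up to 4 passing genes per list, and any gene of the Ahr and P450 partner lists; the other pancreatic genes given were chosen after their values were seen. One gene of the P450 partner list is not reported here and is left out of its counts. Alternatives were other background, normalisation, filter, covariate and spread settings, the red channel alone, males only, no slide 1, and each animal left out.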

Additional observations from a re-analysis of the deposited data

Results flagged for a closer look

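In Cyp1a2 probe 1, Great Basin juniper 4 stood apart from the other 3 animals of its group, with a log2 ratio of −0.04 beside 0.12, 0.13 and 0.10. In Cyp1b1 probe 1, Great Basin creosote 3 stood apart, at −0.02 beside 0.14, 0.12 and 0.12. Each gap to the nearest animal was 0.86 and 0.875 of its group's range, in groups whose whole range was small. Of 22 groups of 4 checked, these 2 passed Dixon's limit, and chance alone flags about 1 in 20.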

How the results depend on the processing

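Across 30 other settings, 16 of which left out 1 animal, the 5 member results past the threshold gave 148 values, of which 34 were no longer past it in the same direction. Over all 1420 member values, 9 gained a call, 2 turned sign with a call on either side, and 85 uncalled values changed sign. For diet in Mojave, the count of member probes past the threshold was 2, and it was 1 with the software's processed signals, median centring, the red channel alone, 1 brightest probe per gene, no slide 1, or a trended robust spread, and 1 to 2 with an animal left out. For diet in Great Basin the count was 0, and it was 1 with median centring, slide as a block or the replicate block, 2 with the red channel alone, and 0 to 1 with an animal left out. The averaged diet count of 3 was 0 with processed signals or without slide 1, 1 with median centring or males only, and 1 to 3 with an animal left out. Median centring gave 1 population call on creosote (Cyp2a1, −0.54) and 2 in the interaction (Cyp2a1, −0.81, and Cyp1a2 probe 2, 0.43), and males alone gave 1 averaged population call (Cyp2a3a, 0.91). Cyp1a2 probe 2 reversed in the red channel alone, diet in Great Basin at −0.68 (0.04 with the pool) and the averaged diet effect at −0.13 (0.22 with the pool). Cyp2a3a in Mojave stayed between 0.62 and 1.25 and passed in 22 of 30 settings, Cyp1a2 probe 2 in 28 of 29. Averaged over populations, Cyp2a3a passed in 24 of 30, Cyp1a2 probe 2 in 22 of 29 and Cyp2a1 in 18 of 30 settings and in 9 of the 16 fits without 1 animal. The causes were not tested. Same-numbered animals did not deviate together (r between −0.17 and 0.14, over 0.1 in 3 of 24 pairs), so the numbers do not pair them; the replicate block gave Cyp2a1 in Great Basin an adjusted p of 0.0463 by limma and changed no other member count. Over all probes, the Mojave diet calls were 3027, 1949 with processed signals, 5621 with median centring, 1287 in the red channel, 1275 in males, and 1897 to 3276 with an animal left out (1897 without Mojave juniper 2, 1970 without Mojave juniper 1). In Great Basin they were 1181, 777 with processed signals, 174 in males, and without slide 1 they fell to 1.41% of probes, against 3.91%. They were 679 to 1392 with an animal left out (679 without Great Basin juniper 1, 706 without Great Basin juniper 4, 729 without Great Basin creosote 1). The averaged diet calls were 3680, 1421 in males and 2387 without slide 1. The population calls on creosote were 27, 3685 with median centring, 346 without the sex term and 0 with processed signals, and the interaction calls were 0, 2953 with median centring, 215 without the sex term and 30 with slide as a block. Left-out animals moved the creosote population count between 0 and 616 and the interaction count between 0 and 496. The averaged population calls were 12, with 0 to 89 when an animal was left out, and calls for juniper populations and sex stayed between 0 and 15. Calls higher on creosote were 37.9% in Mojave, 13.6% with median centring and 50.3% in the red channel, and 51.7%, 63.8% and 40.8% in Great Basin. They were 46.2% and 28.8% for the averaged effect with loess and median centring. Dim probes limit Cyp1b1, Cyp2a2 and Cyp1a2 probe 2.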
